A study of Mus musculus with 4 samples.

Results

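The genes described here are 10 smooth muscle and contractile genes, Acta2, Actg2, Tagln, Cnn1, Cnn2, Myl9, Myh11, Mylk, Tpm2 and Smtn, chosen by name from the 23284 gene symbols counted in each library. All 10 were found by symbol and all 10 passed the filter on low counts, which 15645 genes passed. They were measured by RNA-seq in cells sorted for green fluorescence from mouse limbs at the embryonic stage E13.5. The Osr1 GCE allele is a knock-in that puts eGFP, an IRES and the tamoxifen-inducible recombinase CreERt2 at the Osr1 locus, so that cells with an active Osr1 locus fluoresce. The genotypes compared, on the strain C57BL/6J, were Osr1 GCE/+ (heterozygous, with 1 functional allele, n = 2) and Osr1 GCE/GCE (homozygous, without a functional allele, n = 2). By the study's methods the samples came from 2 embryos per genotype, and no wild-type sample was used here. Both genotypes carry the reporter and CreERt2, GCE/GCE cells on both alleles, and the sort depends on the reporter, so the cells are those with Osr1 locus activity and not one cell type. The comparison asks whether the contractile genes differed when Osr1 function was absent.

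Smooth muscle contracts when myosin pulls on actin filaments. Calcium-bound calmodulin activates myosin light chain kinase, which phosphorylates the regulatory light chain of myosin, while tropomyosin, calponin and other proteins bind along the actin filament. Many genes of this set are controlled by serum response factor with its co-activators of the myocardin family, through a promoter element called the CArG box, and several of them are also expressed in fibroblasts, myofibroblasts and embryonic mesenchyme.

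Because the CArG box is the element most closely tied to these genes, it was searched for, on the 250 bases upstream of the RefSeq start, in the RefSeq promoter table of build GRCm38.p6, which matched 7 of the 10 genes (Myl9, Tpm2, Cnn1, Cnn2, Smtn, Mylk and Acta2). The box is the same on both strands, and overlapping matches were counted once per position. A box without mismatch was found in 2 of 7, Myl9 and Cnn2, and in 482 of all 32851 promoters (1.47%). With at most 1 mismatch in its A/T core, 3 of 7 held one, Acta2 being the third, against 8.59% of all promoters. The boxes are printed in capitals with 10 flanking bases on each side, 5′ to 3′ on the strand of the gene. The first Myl9 box and the Cnn2 box have no mismatch, and the other 3 have 1. Both Acta2 boxes lie upstream of the RefSeq start but inside the first exon of a longer GENCODE transcript. No match in a window says only that the letters were not found there.
Myl9, chr2:156775293-156775322, plus strand: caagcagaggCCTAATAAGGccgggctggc
Myl9, chr2:156775355-156775384, plus strand: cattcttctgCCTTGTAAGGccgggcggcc
Cnn2, chr10:79988534-79988563, plus strand: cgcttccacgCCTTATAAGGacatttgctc
Acta2, chr19:34255438-34255467, minus strand: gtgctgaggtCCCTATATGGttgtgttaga
Acta2, chr19:34255388-34255417, minus strand: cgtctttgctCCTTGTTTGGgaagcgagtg

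Since the muscle actins are near-identical proteins, their transcripts were compared to see whether reads could be told apart. Over the coding sequence, Acta1 (skeletal muscle actin) shared 85.4% and Actc1 (cardiac actin) 82.6% of bases with Acta2 (vascular smooth muscle actin). Of the 50-base words of the Acta2 transcript, the length of 1 read, 0.352% occurred in another gene (Actg1 and actin pseudogenes) and no 150-base fragment had both ends shared. Actg2, Cnn1, Cnn2, Myl9 and Tpm2 shared none, and Myh11 shared 0.4% with Myh9 and Myh10. Words shared with overlapping or copied genes were more frequent in Mylk (4.28%, with E130310I04Rik and Gm21691), Smtn (13.2%, with Gm11946) and Tagln (48.3%, with Gm48529 and Pcsk7). The share of fragments with both ends shared was 1.39% for Mylk, 7.54% for Smtn and 34% for Tagln. Their counts are therefore less certain than those of the others, and no strand-specific counting was stated. Of these neighbours, Pcsk7 and E130310I04Rik were counted as genes of their own. Pcsk7, which overlaps Tagln, read 39.3 and 42.7 CPM in GCE/+ against 43.1 and 39.3 CPM in GCE/GCE.

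The libraries held 52121596 to 61402140 counts, so that 3 counts correspond to 0.049 to 0.0574 CPM (counts per 1000000 counts of the library, scaled by the TMM method). The targeted gene followed the labels: Osr1 read 81.9 and 79.1 CPM in GCE/+ but 11.9 and 13.9 CPM in GCE/GCE. The difference was -2.64 on the log2 scale (SE 0.106), with an adjusted p of 5.94e-05 (edgeR quasi-likelihood test with Benjamini-Hochberg adjustment). In that test 140 genes were higher and 145 lower in GCE/GCE at an adjusted p under 0.1, which is 1.82% of the genes tested. GCE/GCE replicate 1 stood apart in Xist, the RNA of the inactive X chromosome, with 1142 CPM against at most 2.63 CPM in the other 3 libraries, and its part in the values below was not tested. In sorted bulk cells a higher level per cell and a higher share of expressing cells cannot be told apart.

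The 10 contractile genes were expressed in every sample and differed little between the genotypes. None passed the threshold (0 of 10 by edgeR, against 1.82% of all genes tested; 0 of 10 by DESeq2, which called 3.45% of its genes; and 0 of 10 with an unadjusted edgeR p under 0.05, against 10.5% of all genes). Summed over the 10 genes, the level was 606 and 582 CPM in GCE/+ and 632 and 588 CPM in GCE/GCE, ranges that overlap. Both GCE/GCE values lay above both GCE/+ values for 3 of 10 genes, Acta2, Actg2 and Myl9, where 19.2% of all genes did so, and below them for 0 of 10, where 19.1% did. The median log2 fold change (GCE/GCE minus GCE/+) was 0.06 over the 10 genes and 0.0033 over all genes tested, and that of the 10 genes was -0.0016 without GCE/GCE replicate 1. The median size regardless of sign was 0.065 against 0.105 over all genes tested, which were not matched to the 10 genes for level. The 95% interval of the fold change lay within 0.5 log2 units of 0 for 7 of 10 genes and within 1 for all 10.

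**Figure D1:**
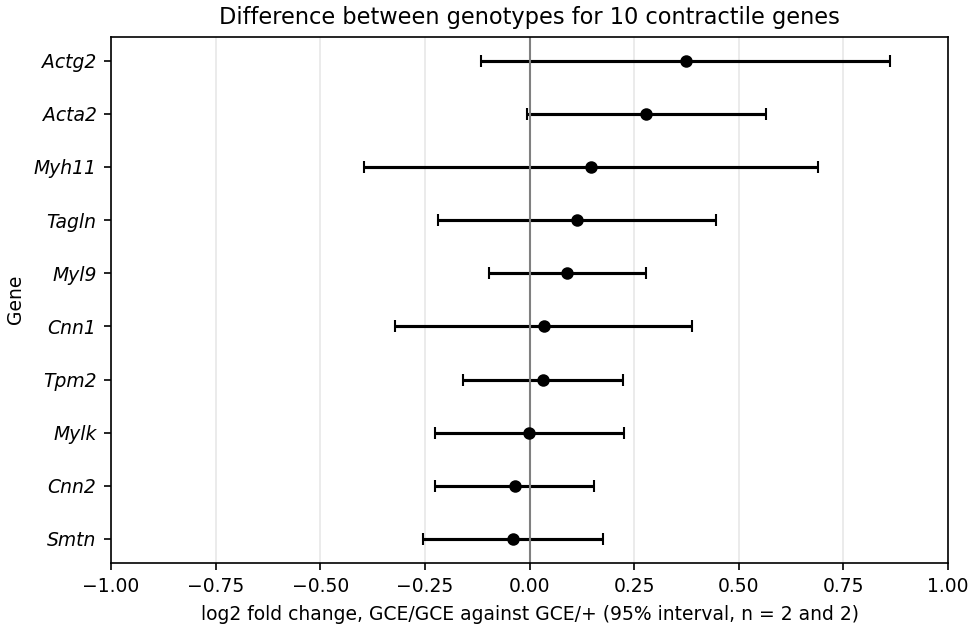
Log2 fold change of GCE/GCE against GCE/+ cells (points) with the 95% interval of the edgeR fit (bars) for each contractile gene, n = 2 per genotype. All 10 intervals include 0, with Actg2 (0.37) and Acta2 (0.28) farthest to the right and Myh11 and Actg2 the widest.

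Acta2 encodes the actin of vascular smooth muscle and of myofibroblasts, and lies on chromosome 19 (34241090 to 34255590, minus strand). It read 58.5 and 65.9 CPM in GCE/+ and 84.8 and 66.1 CPM in GCE/GCE. Both GCE/GCE values were the higher, but the second exceeded the upper GCE/+ value only slightly, and GCE/GCE replicate 1 alone stood well above the other 3. The fold was 1.21 (95% interval 0.996 to 1.48) and the log2 fold change 0.28 (SE 0.125), which did not pass the test (adjusted p = 0.49, edgeR quasi-likelihood test with Benjamini-Hochberg adjustment). That value rested on 1 library. It was 0.08 without GCE/GCE replicate 1 and 0.45 without GCE/GCE replicate 2, where Acta2 passed the edgeR threshold (adjusted p = 0.0819), the 1 remaining GCE/GCE library being assumed to vary like the others. Over the alternative settings its adjusted p ran from 0.0819 to 0.99997.

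Actg2, the actin of enteric and other visceral smooth muscle (chromosome 6, 83512905 to 83536265, minus strand), was present at a much lower level. It read 1.99 and 1.87 CPM in GCE/+ and 2.81 and 2.21 CPM in GCE/GCE, from 98 to 163 counts per library. The genotypes did not overlap, and GCE/GCE replicate 1 was again the highest. The log2 fold change was 0.37 (SE 0.214, 95% interval -0.12 to 0.86, adjusted p = 0.657 by edgeR), and 0.18 without GCE/GCE replicate 1.

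Myosin and its regulators showed no difference past the test. Myh11, the smooth muscle myosin heavy chain and the most specific marker of differentiated smooth muscle in the set (chromosome 16, 14194535 to 14291372, minus strand), read 2.00 and 2.26 CPM in GCE/+ and 2.79 and 1.93 CPM in GCE/GCE. One GCE/GCE library was the highest of the 4 and the other the lowest, with 118 to 162 counts per library. Its log2 fold change was 0.15 (SE 0.237, 95% interval -0.40 to 0.69), and -0.15 without GCE/GCE replicate 1. Myl9, the regulatory light chain of smooth muscle myosin (chromosome 2, 156775420 to 156781658, plus strand), read 84.7 and 79.6 CPM in GCE/+ and 89.4 and 85.5 CPM in GCE/GCE. The GCE/GCE values were both higher, the lower of them by little. The log2 fold change was 0.09 (SE 0.0819, 95% interval -0.10 to 0.28, adjusted p = 0.846 by edgeR). Mylk encodes the myosin light chain kinase (chromosome 16, 34745210 to 35002420, plus strand). Its levels were 30.3 and 33.8 CPM in GCE/+ and 32.5 and 31.5 CPM in GCE/GCE, so that both GCE/GCE values lay between the GCE/+ values. The log2 fold change was -0.00035 (SE 0.0986, 95% interval -0.23 to 0.23).

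Among the proteins that bind along the actin filament, the 2 calponins differed widely in level. Cnn1, the calponin typical of smooth muscle (chromosome 9, 22099216 to 22109630, plus strand), read 5.53 and 6.39 CPM in GCE/+ and 6.10 and 6.09 CPM in GCE/GCE, the GCE/GCE values again lying between the GCE/+ ones. Its log2 fold change was 0.03 (SE 0.155, 95% interval -0.32 to 0.39). Cnn2, the calponin also found in non-muscle cells (chromosome 10, 79988584 to 79996062, plus strand), had 267.5 and 249.8 CPM in GCE/+ and 254 and 251 CPM in GCE/GCE. The groups overlapped, and the log2 fold change was -0.03 (SE 0.083, 95% interval -0.22 to 0.16).

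Tagln (SM22, an actin-crosslinking protein that appears early in smooth muscle differentiation, chromosome 9, 45929619 to 45936058, minus strand) read 35.6 and 31.1 CPM in GCE/+ and 41.5 and 30.7 CPM in GCE/GCE. The highest and the lowest values were both from GCE/GCE libraries. Its log2 fold change was 0.11 (SE 0.145, 95% interval -0.22 to 0.45), and -0.12 without GCE/GCE replicate 1. Tpm2 (beta-tropomyosin, chromosome 4, 43514711 to 43523765, minus strand) had 60.4 and 56.6 CPM in GCE/+ against 59.3 and 60.4 CPM in GCE/GCE, a log2 fold change of 0.03 (SE 0.0834, 95% interval -0.16 to 0.22). Smtn, which encodes the smooth muscle cytoskeletal protein smoothelin (chromosome 11, 3517523 to 3540612, minus strand), had 59.2 and 54.6 CPM in GCE/+ against 58.4 and 52.2 CPM in GCE/GCE. Both genes overlapped between genotypes, and the log2 fold change of Smtn was -0.04 (SE 0.0942, 95% interval -0.25 to 0.18). Gene positions are those of GENCODE M21 (GRCm38), matched by symbol.

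For 8 of 10 genes, samples of 1 genotype differed from each other at least as much as the genotypes did. The difference between genotype means on the log2 scale exceeded both differences between replicates for 2 of 10 genes, Actg2 and Myl9. The share of all genes tested that did so was not counted, so no trait particular to these 10 genes can be read from it. GCE/GCE replicate 1 was the highest sample for 5 of 10 genes (Acta2, Actg2, Tagln, Myl9 and Myh11) and the lowest for 0, while 20.9% of all genes tested were highest there. From replicate 1 to replicate 2, GCE/GCE levels differed by -0.36 for Acta2, -0.35 for Actg2, -0.43 for Tagln and -0.53 for Myh11 (log2). In GCE/+ the same differences were 0.17, -0.08, -0.19 and 0.17. The 4 genes thus shared 1 high library among the GCE/GCE samples and did not share a direction between the GCE/+ samples. Myl9 differed by only -0.07 between the GCE/GCE libraries.

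**Figure D2:**
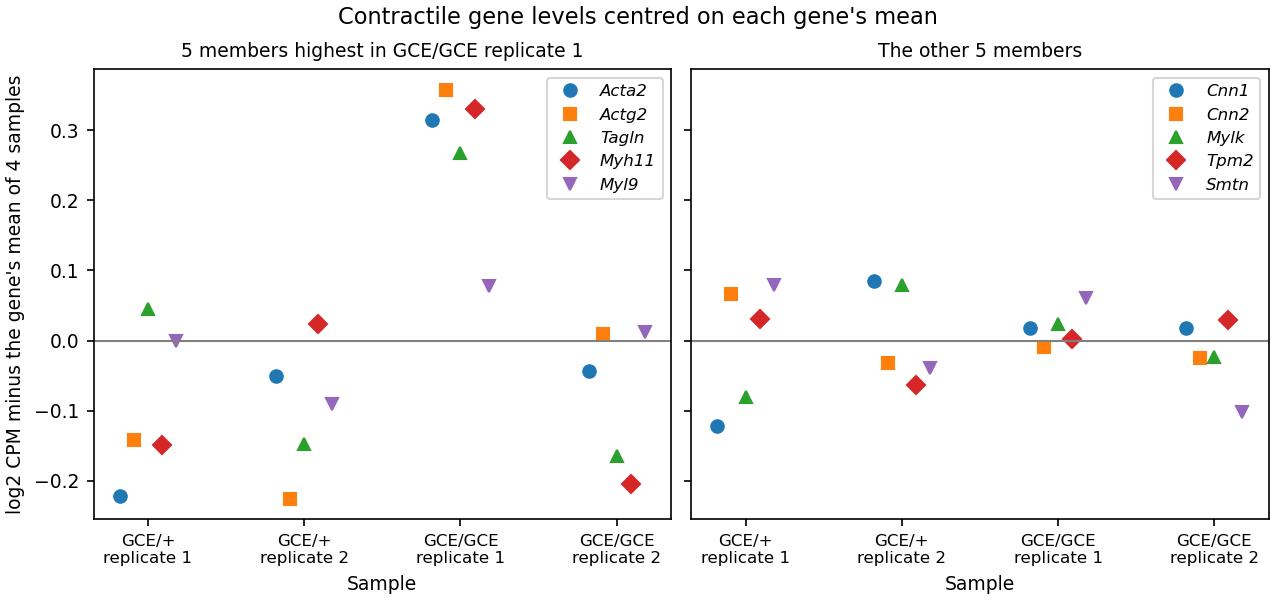
Level of each contractile gene in each of the 4 samples, as log2 CPM minus the gene's mean over the 4 samples; the left panel holds the 5 genes highest in GCE/GCE replicate 1 and the right panel the other 5, a split made after the values were seen. In the left panel Acta2, Actg2, Tagln and Myh11 stand highest in GCE/GCE replicate 1 and spread around or below 0 in the other 3 samples, while in the right panel no sample stands apart.

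Compared between genes per kilobase of exon, so that long transcripts do not count for more, the 10 genes spanned a 326-fold range in GCE/+ cells. Cnn2 was the highest with a mean of 105 CPM per kb (102 and 109 in the 2 samples), followed by Myl9 with 72.8 CPM per kb. Acta2 (30.6 CPM per kb), Tpm2 (24.6), Tagln (20.9) and Smtn (14.6) formed a middle group, all above the median of 6.49 CPM per kb over all genes tested. Mylk (3.96 CPM per kb), Cnn1 (2.36), Actg2 (1.41) and Myh11 (0.322) lay below that median. The GCE/+ values of neighbours in this order did not overlap, although with 2 samples this is no test, and the order of the means was the same in GCE/GCE. Without the division by length, Tagln and Smtn, and Actg2 and Myh11, changed places. The smooth muscle genes Myh11, Actg2 and Cnn1 were the 3 lowest, but Smtn, also a smooth muscle gene, stood above 69.8% of all genes tested. Cnn2 stood above 96.9% and Myh11 above 12.8% of them.

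**Figure D3:**
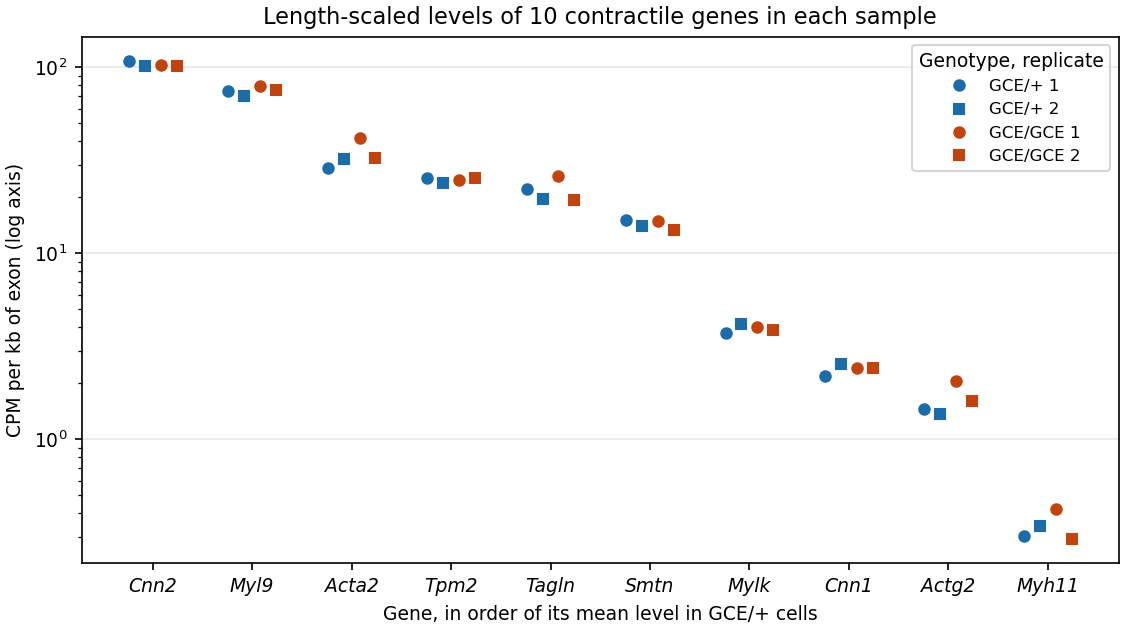
Level of each contractile gene in each sample, in CPM per kb of exon on a log axis, with genes ordered by their mean in GCE/+ cells. Levels fall from Cnn2 (mean 105 in GCE/+) to Myh11 (0.322), and the 4 samples of a gene lie close together relative to the distance between most genes.

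Each gene was set against its own family per kb of exon (families formed after the values were seen, with no test). Acta2, Actg2, Myh11, Cnn1 and Tpm2 were minor members of theirs. Acta2 made up 1.12 to 1.69% of the level of 6 actins over the 4 samples and Actg2 0.0534 to 0.0833%, while the cytoplasmic actins Actb (36.1 to 38.1%) and Actg1 (58.5 to 60.4%) made up nearly all the rest. Actc1, at 1.73 to 2.29%, was above Acta2 in each sample. Myh11 made up 0.244 to 0.352% of 4 class II heavy chains (Myh11, Myh9, Myh10 and Myh14), against 77.2 to 80.6% for the non-muscle form Myh10. Skeletal muscle heavy chains such as Myh3 (29.8 to 44.8 CPM) and Myh8 (4.86 to 11.4 CPM) were left out of this family. The actin family did include the skeletal and cardiac forms. Cnn1 made up 0.51 to 0.591% of 3 calponins and Cnn2 23.7 to 25.2%, the remainder being Cnn3. Tpm2 made up 4.50 to 4.85% of 4 tropomyosins, and Tpm1, counted below among the other smooth muscle genes, 26.7 to 29.7%. By contrast Mylk made up 77.7 to 81.5% of 4 light chain kinases and Smtn 66.3 to 70.8% of 3 smoothelin genes. Myl9 (39.4 to 43.7% of 3 regulatory light chains) and Tagln (26.9 to 29.8% of 3 transgelins) lay between. The share of Acta2 was 1.12 and 1.26% in GCE/+ and 1.69 and 1.33% in GCE/GCE, with the same single high library as its level.

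**Figure D4:**
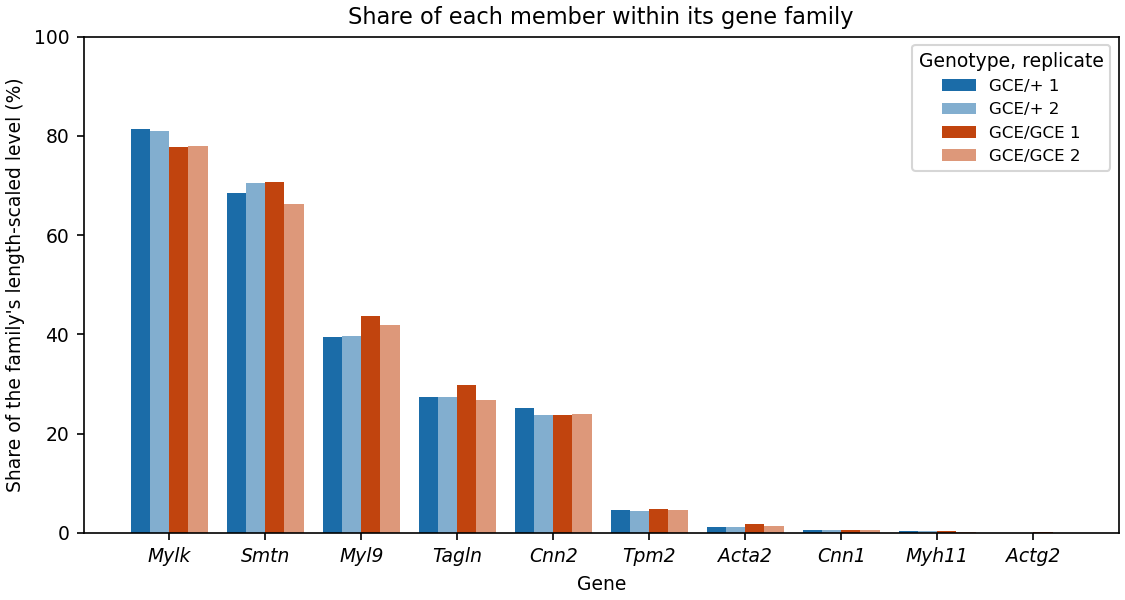
Share of each contractile gene in the summed length-scaled level of its gene family, in percent, with 1 bar per sample. Mylk and Smtn exceed 66% in every sample, Myl9, Tagln and Cnn2 lie between 23.7 and 43.7%, and Tpm2, Acta2, Cnn1, Myh11 and Actg2 stay below 5%.

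The wider contractile programme gave the same picture. Of 18 genes that regulate contraction or these promoters (0 called by edgeR and 0 by DESeq2), 1 had an unadjusted edgeR p under 0.05, Prkg1 (cGMP-dependent protein kinase), with 32.5 and 39.4 CPM in GCE/+ and 45.3 and 46.3 CPM in GCE/GCE. The median log2 fold change of the 18 was -0.0013. Serum response factor (Srf) read 220.3 and 239.5 CPM in GCE/+ and 219 and 207 CPM in GCE/GCE (log2 fold change -0.11, SE 0.0862). Myocd, the myocardin co-activator of smooth and cardiac muscle, read 0.985 and 1.36 CPM in GCE/+ and 2.12 and 1.19 CPM in GCE/GCE (log2 fold change 0.50, SE 0.323). It was highest in GCE/GCE replicate 1, as Acta2 and 20.9% of all genes tested were, whereas Srf was highest in GCE/+ replicate 2. So was Lmod1, another smooth muscle gene, with 1.38 and 2.43 CPM in GCE/+ and 2.29 and 1.90 CPM in GCE/GCE. Of 20 other smooth muscle genes 0 were called by either tool, 1 had an unadjusted edgeR p under 0.05 (Nexn, an actin filament protein, log2 fold change 0.30, SE 0.101), and the median was 0.03. Of 18 non-muscle actomyosin genes 0 were called by either tool, 1 had an unadjusted edgeR p under 0.05 (Actn1, an actin crosslinker, log2 fold change 0.27, SE 0.103), and the median was 0.0062. Prkg1, Lmod1, Nexn and Actn1 were named after their values were seen. Actb (log2 fold change -0.12, SE 0.119) and Actg1 (-0.05, SE 0.138) did not pass the test either.

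Because several of the 10 genes are shared with other cell types, their markers were read in the same libraries. Of 12 mural cell markers (pericytes and vascular smooth muscle), 11 were tested, 0 were called by edgeR and 1 by DESeq2 (Kcnj8, a potassium channel subunit, lower, log2 fold change -0.80, adjusted p = 0.0756 by DESeq2). Of the 11, 3 had an unadjusted edgeR p under 0.05, against 10.5% of all genes (Kcnj8, Abcc9 and Cox4i2, named after their values were seen). Kcnj8 and Abcc9 (log2 fold change -0.29, SE 0.106) were lower in GCE/GCE, and Cox4i2 (0.73, SE 0.196) was higher. The summed level of the list was 603 and 621 CPM in GCE/+ against 624 and 571 CPM in GCE/GCE, and Higd1b was at 0 in all libraries. Rgs5, a pericyte marker, read 1.84 and 1.36 CPM in GCE/+ and 3.38 and 1.60 CPM in GCE/GCE, again highest in GCE/GCE replicate 1. The more broadly expressed Pdgfrb (194 and 206 CPM against 188 and 179 CPM) and Cspg4 (58.2 and 63.1 CPM against 73.1 and 66.1 CPM) did not pass the test. Neither overlapped between genotypes, Pdgfrb being lower and Cspg4 higher in GCE/GCE. Of the 11 genes tested, 3 were higher and 3 lower without overlap, against 19.2% and 19.1% of all genes. Whether mural cells had a part in the Acta2 values was not tested.

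Of 20 skeletal muscle markers, 18 were tested and 1 was called higher by edgeR, Myh8 (perinatal myosin heavy chain), with 4.86 and 5.93 CPM in GCE/+ and 11.4 and 9.92 CPM in GCE/GCE, and its log2 fold change was 0.98 (SE 0.161, with an adjusted p of 0.0377 by edgeR). DESeq2 called Myh8 and Ttn. Of the 18, 6 had an unadjusted edgeR p under 0.05, against 10.5% of all genes, and 16 had a fold above 0 on the log2 scale. Both GCE/GCE values lay above both GCE/+ values for 12 of the 18, against 19.2% of all genes. The summed level of the list was 215 to 244 CPM in GCE/+ and 260.0 to 286 CPM in GCE/GCE, with no overlap and a median log2 fold change of 0.26. Of the myogenic factors, Myod1 (8.15 to 9.77 CPM), Myog (24.1 to 27.6 CPM) and Myf5 (1.95 to 2.73 CPM) were present in all libraries. Myf6 was at 0 to 0.049 CPM and was not tested. Myf5 and Myf6 were named after their values were seen. By antibody labelling of sorted limb cells, the paper found Myf5 and Myogenin protein only in the GFP-negative fraction. Acta1 (7.55 and 8.30 CPM against 10.4 and 9.82 CPM) and Actc1 (65.7 and 70.3 CPM against 83.3 and 67.1 CPM) did not pass the test, although the Acta1 values did not overlap between genotypes. Actc1 was highest in GCE/GCE replicate 1, as Acta2 was. The sort for GFP should leave out muscle cells that lack Osr1 locus activity, and the part of muscle cells in the contractile genes was not tested.

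Markers of other populations were read in the same way. Of all genes tested, edgeR called 1.82% and DESeq2 3.45% in either direction, and 10.5% had an unadjusted edgeR p under 0.05. Of 11 macrophage markers, 7 were called lower by edgeR and 9 by DESeq2, and the median log2 fold change of the list was -0.97. The summed level was 312 to 314 CPM in GCE/+ and 139 to 196 CPM in GCE/GCE. Mrc1, C1qb, C1qc and C1qa had the smallest adjusted p (0.0275 to 0.0552 by edgeR). Of 14 cartilage markers, 7 were called higher by edgeR and 6 by DESeq2, and the median log2 fold change of the list was 0.89. Col11a1 (0.78, SE 0.119, adjusted p = 0.0324 by edgeR) had the smallest adjusted p. Of 11 endothelial markers 0 were called by edgeR and 1 by DESeq2 (Tie1, lower), with 6 at an unadjusted edgeR p under 0.05 and a median log2 fold change of -0.47. The vessel marker Pecam1 read 18.5 and 13.8 CPM in GCE/+ and 13.45 and 10.9 CPM in GCE/GCE. Of 12 limb mesenchyme markers 0 were called by edgeR and 4 by DESeq2, with 3 at an unadjusted edgeR p under 0.05. The fold was below 0 on the log2 scale for 11 of these 12 and their median was -0.17. The 4 called by DESeq2 were all lower, and were the matrix genes Col3a1, Dcn and Lum and the transcription factor gene Tcf7l2 (named after their values were seen). Pdgfra, the 1 marker with a fold above 0 (0.05, SE 0.116), was present at 833 to 977 CPM in the 4 libraries. Of 8 epithelial markers 0 were called by edgeR and 1 by DESeq2, with 3 at an unadjusted edgeR p under 0.05, and of 7 Schwann cell markers 0 were called by either tool and 0 had an unadjusted edgeR p under 0.05. Their part in the values of the contractile genes was not tested.

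The genes whose profile over the 4 samples was most like that of Acta2 were not contractile genes. By the distance between centred log2 CPM values over 13458 genes averaging 1 CPM or more, the nearest were Acad12 (0.037), Ddx3x (0.059), Ctnna2 (0.062), Rgag1 (0.071) and Pik3r1 (0.071). The nearest of the other 9 contractile genes was Myh11 at 0.191, with 198 genes outside the set nearer than it, followed by Actg2 at 0.205, with 260. Cnn2 was the farthest at 0.433. Like Acta2, each of the nearest genes was highest in GCE/GCE replicate 1, the library that stood apart in Xist, and the part of that difference was not tested. With 4 samples the distances are a description of these libraries.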

How the data were processed

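RNA-seq was carried out by the study on Osr1+ cells from 2 Osr1 GCE/+ and 2 Osr1 GCE/GCE embryos (TruSeq v2, 50-bp paired-end reads). The deposited files hold raw counts of fragments per gene symbol, which the authors obtained by mapping to mm9 with TopHat2 (UCSC gene model, mean inner distance set to 150) and counting with HTSeq in intersection-strict mode, where fragments in overlapping genes are dropped. No summary rows were present. The counts were tested with edgeR 4.0.16 (R 4.3.3; filterByExpr, TMM, glmQLFit with legacy = FALSE, glmQLFTest) over 15645 genes with Benjamini-Hochberg adjustment and a threshold of 0.1, and with DESeq2 1.42.0 as an alternative. Two-sided tests were used throughout. The biological coefficient of variation was 0.107. An exact permutation test of 2 against 2 samples cannot go below p = 0.333, so none was used. Same-numbered samples did not deviate together (correlation 0.02 over 13469 genes), so they were not paired in the main test. Whether they shared a litter or batch is not known from the labels.

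Lengths came from the GENCODE M21 exons (98% of symbols matched), a build other than mm9, and no coordinate was converted. The test was checked on simulated counts. The 10 genes and all lists were chosen with earlier results of these data known. All 10 were named, with the 5 genes nearest to Acta2 and some, not all, of the called list genes (at most 4 per list), defining markers and paralogues. Depth was 52121596 to 61402140 counts per sample. Other normalizations, filters, length offsets and left-out samples were tried as alternatives, and the legacy quasi-likelihood fit was added after seeing the data.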

Additional observations from a re-analysis of the deposited data

How the results depend on the processing

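The number of genes past the threshold was 285. It moved to 508 with DESeq2, 127 without a filter on low counts, 533 with the replicate block and length offsets together, and 130 at an adjusted p under 0.05, and leaving out 1 sample gave 199 to 961. With the replicate block alone it was 290 and no contractile gene was called, so the block changed no call among them. The number of contractile genes called stayed at 0 except when 1 sample was left out, with 0 to 1: Acta2 was called without GCE/GCE replicate 2. Of 140 values of single genes under the 14 alternatives, 127 kept their sign and side of the threshold, 12 changed sign and 1 (that of Acta2) passed the threshold. The sign of Mylk changed with the replicate block (0.0015), and that of Cnn2 with length offsets (0.011) and with length offsets and the replicate block (0.011). Leaving out 1 sample gave log2 fold changes from 0.08 to 0.45 for Acta2, 0.18 to 0.54 for Actg2, 0.046 to 0.13 for Myl9, -0.074 to 0.14 for Cnn1, -0.084 to 0.0088 for Cnn2, -0.13 to 0.039 for Smtn, -0.085 to 0.082 for Mylk, -0.014 to 0.073 for Tpm2, -0.12 to 0.31 for Tagln and -0.15 to 0.39 for Myh11; the cause was not tested. Acta2, Actg2 and Myl9 were above 0 under all 14 alternatives, while the median of the 10 genes ran from -0.0016 (without GCE/GCE replicate 1) to 0.083. With 2 samples per genotype the intervals were widest for Actg2 and Myh11, which had under 200 counts per library, and a difference that lies within an interval cannot be told from 0 here. Depth was not varied.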
